A study of Homo sapiens with 32 samples.

Results

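Box C/D small nucleolar RNAs (snoRNAs) other than SNORD126, SNORD87, SNORD18A, SNORD18B, SNORD18C and SNORD46 were examined in Hep3B cells, a human liver cancer line. A gene was taken when its symbol began with SNORD and 30 or more reads lay on at least 50% of its positions in all 16 mock libraries. Of 357 RefSeq SNORD genes, 184 met this coverage rule. Removal of the 6 named genes left 178 loci, and identical copies were merged to 171 genes, of 482 genes and merged copies that met the same rule in the whole series. For the 7 genes with identical copies, values are those of the copy with the highest mean depth. Reads at their other copies were not added. The limit of 50% separated the genes cleanly, because a median of 96.9% of a gene's positions was covered and 48 genes were covered at every position. Just inside it lay SNORD116-18 with 53.2%, SNORD111 with 60.6% and SNORD3D with 63.6% of positions, whereas the 173 SNORD genes outside it had no position that was listed in all 16 mock libraries.

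The study mapped N4-acetylcytidine (ac4C), a modification of RNA made by the acetyltransferase NAT10, by sequencing a NaCNBH3-treated and a mock-treated portion of the same RNA. Reduction by NaCNBH3 makes part of the acetylated cytidines read as T. There were 32 libraries, from 8 genotypes with 2 independent replicates each, and all cells, parental cells included, had been kept for 24 h in 100 nM dTAGV1, the degrader. NAT10(-) cells carried an FKBP12-F36V degron tag on both endogenous NAT10 alleles and a control plasmid that encodes YFP. By the labels, K290A and E389L cells had the same tag and were transduced with NAT10 bearing 1 substitution in the RNA helicase domain. H537A and G641E cells had the tag and NAT10 with 1 substitution in the acetyltransferase (GNAT) domain. FKBP cells had the tag and no added plasmid, NAT10-WT cells had the tag and an added unmutated NAT10, and Wildtype cells were parental Hep3B cells without tag or plasmid. The tag, its hygromycin and G418 selection, clonal history, transduction and blasticidin selection therefore differ together between Wildtype cells and the transduced cells and cannot be told apart. Between Wildtype and FKBP cells the tag, its selection and clonal history differ without transduction, and these cannot be told apart either.

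Box C/D snoRNAs are short nucleolar RNAs that carry a C box near the 5′ end and a D box near the 3′ end, at which the proteins fibrillarin, NOP56, NOP58 and SNU13 assemble. Most guide 2′-O-methylation of ribosomal or spliceosomal RNA by base pairing. A few, such as U3, U8, U14 and U22, take part in the cleavage and folding of pre-rRNA. The paper names U13 (SNORD13) as an adapter for RNA acetylation by NAT10. In human cells most are cut out of introns of host genes, many of which encode ribosomal proteins or are non-coding RNAs such as GAS5 and SNHG1.

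The genes had the sequence marks of the class. The C box was searched as TGATGA and the D box as CTGA, on the transcript strand only. TGATGA occurred in 126 of the 171 genes (73.7%), against 68.9% of all RefSeq SNORD genes and 3.27% of box H/ACA (SNORA) genes. CTGA occurred in 169 (98.8%), against 92.7% of all SNORD and 50% of SNORA genes, and in 154 genes a CTGA ended within 10 bases of the 3′ end. Lengths ran from 48 to 237 bases with a median of 81. The following RefSeq sequences (GRCh38.p14, 5′ to 3′) show the arrangement in the genes whose levels are described, with the first TGATGA and the last CTGA in capitals.
SNORD118 (U8, chr17:8173452-8173588, minus strand): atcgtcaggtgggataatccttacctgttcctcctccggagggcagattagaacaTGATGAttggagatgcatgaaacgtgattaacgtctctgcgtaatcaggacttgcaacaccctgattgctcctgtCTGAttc
SNORD22 (U22, chr11:62852910-62853035, minus strand): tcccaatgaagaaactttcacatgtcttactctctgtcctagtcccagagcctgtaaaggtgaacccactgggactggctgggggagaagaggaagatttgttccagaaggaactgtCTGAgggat
SNORD32A (chr19:49489966-49490047, plus strand): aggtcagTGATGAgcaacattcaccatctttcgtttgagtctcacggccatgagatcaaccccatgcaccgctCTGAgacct
SNORD44 (chr1:173865968-173866028, minus strand): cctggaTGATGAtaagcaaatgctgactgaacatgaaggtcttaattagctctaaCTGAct
SNORD47 (chr1:173864369-173864445, minus strand): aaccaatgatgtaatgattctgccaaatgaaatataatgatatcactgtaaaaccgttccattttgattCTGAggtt
SNORD74 (chr1:173867674-173867745, minus strand): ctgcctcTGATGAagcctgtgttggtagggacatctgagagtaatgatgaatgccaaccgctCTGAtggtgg
SNORD107 (chr15:24981994-24982068, plus strand): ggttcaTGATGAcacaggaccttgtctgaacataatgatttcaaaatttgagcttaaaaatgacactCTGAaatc
SNORD116-19 (chr15:25086526-25086619, plus strand): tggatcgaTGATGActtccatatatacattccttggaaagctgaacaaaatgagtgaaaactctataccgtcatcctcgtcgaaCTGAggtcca
SNORD22 and SNORD47 have no exact TGATGA, and their D box alone is marked.

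Each file lists, for every genomic position with 30 or more reads, the number of reads with each base. Mock libraries held base calls at 400284 to 3735165 positions, and the snoRNA genes took 1.89 to 3.58% of these calls. K290A mock replicate 1 had by far the most listed positions, and the replicates of K290A agreed least over the snoRNAs (Pearson r of log2 depth 0.92, against up to 0.97 for Wildtype). The highest count at a position lay between 20029 and 20049 reads in every library, and 6 genes reached 19000 in at least 1 mock library (SNORD118, SNORD3C, SNORD3D, SNORD3B-1, SNORD2 and SNORD76), so that their depths are lower bounds. All 10 hepatocyte marker transcripts looked up were listed in some mock library, and 6 of them (ALB, APOA1, APOA2, APOB, TF and SERPINA1) in all 16. The degrader acts on the protein, whereas the added NAT10 can be read as RNA and checks the labels in part. Exons of NAT10 were listed in both mock libraries of K290A (3110 and 1441 of 5227 positions), H537A (2758 and 615), G641E (3028 and 2765) and NAT10-WT (907 and 518), and in none of NAT10(-), FKBP and Wildtype, which had no added NAT10. None was listed either in the mock or NaCNBH3 libraries labelled E389L, although E389L mock replicate 1 listed 1633904 positions in all, more than the 684764 of NAT10-WT mock replicate 1. Reads under 30 are not listed, so a low level of added NAT10 cannot be told apart from its absence there. The reads thus do not bear out the E389L label, and comparisons that pool these libraries with others are given without them too. At the first base of the codon that H537A changes, 36 of 37 reads of H537A mock replicate 1 differed from the reference, and at the second base of the codon that G641E changes, 61 of 62 and 37 of 39 reads did in the G641E mock libraries. The codon that K290A changes was not listed in the K290A libraries. Where the codons of the 4 mutants were listed in other genotypes, 5 of 4415 base calls differed.

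Depth is given as the mean number of reads per position of a gene and thus per unit of length. Over the 16 mock libraries the mean depth of a gene ran from 93.1 to 15500 reads, with a median of 966. It exceeded 1000 reads in 83 genes and lay under 200 in 4. The highest levels belonged to snoRNAs of pre-rRNA processing. SNORD118, the U8 RNA needed for maturation of 5.8S and 28S rRNA, had 15482 ± 1505 reads per position (SD, n = 16), with a lowest, median and highest library of 12356, 15927 and 17375. The U3 loci, whose RNA is required for 18S rRNA maturation, followed with 13669 ± 1043 reads at SNORD3C, 13528 ± 654 at SNORD3D, 13167 ± 1199 at SNORD3A and 11544 ± 1095 at SNORD3B-1 (SD, n = 16). Neighbours among these 5 in the order of levels differed by less than their SDs, apart from SNORD118 over SNORD3C and SNORD3A over SNORD3B-1. Reads cannot be split reliably between the U3 loci, which differ from each other by 0 to 4 of 217 bases.

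SNORD22 (U22), a processing factor for 18S rRNA in an intron of SNHG1, came next with 8093 ± 2262 reads (lowest 5322, median 7395, highest 13022). SNORD13 (U13), which base-pairs with 18S rRNA at a site of ac4C, had 4871 ± 1923 reads (lowest 2483, median 4509, highest 9029). Within the SNORD14 (U14) family, also needed for 18S rRNA, levels differed by host. The 3 copies in introns of HSPA8 had 3292 ± 1275 (SNORD14D), 3118 ± 1225 (SNORD14E) and 2662 ± 1116 reads (SNORD14C), and the 2 copies in RPS13 had 854 ± 487 (SNORD14B) and 521 ± 191 reads (SNORD14A). Among methylation guides, SNORD32A in RPL13A had 3861 ± 2192 reads and the GAS5-hosted SNORD47 and SNORD44 had 3146 ± 1920 and 3028 ± 1400. The SDs over libraries were wide for nearly all genes below the U3 loci, and genes close in this order overlapped.

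At the lower end, SNORD125 had 202 ± 157 reads per position, SNORD50B 159 ± 71.9, SNORD111 126 ± 112, SNORD116-13 101 ± 38.4 and SNORD116-18 93.1 ± 59.1 (SD, n = 16). The SNORD116 family is a tandem array in introns of SNHG14 on chromosome 15, expressed from the paternal allele and deleted in Prader-Willi syndrome. Its 22 genes ran from SNORD116-18 up to SNORD116-9 (1961 ± 795 reads). No gene of the neighbouring SNORD115 array met the rule, and none of the SNORD112, SNORD113 and SNORD114 genes on chromosome 14 did. A host gene was annotated for 164 of the 171 snoRNAs. There were 73 hosts, of which 17 held 3 or more of the snoRNAs, with SNHG14 (25), GAS5 (10) and SNHG1 (8) at the top.

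**Figure D1:**
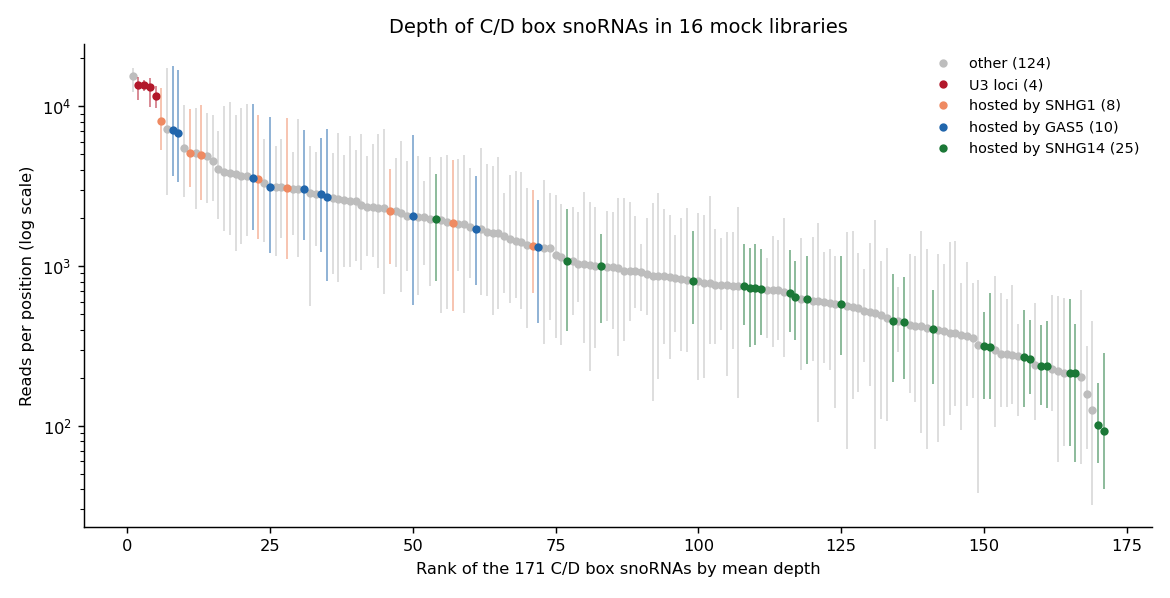
Mean depth of the 171 snoRNA genes in reads per position (log scale), ranked along the x axis. Points are means over the 16 mock libraries and vertical lines run from the lowest to the highest library. Colours mark the U3 loci and the genes hosted by SNHG1, GAS5 and SNHG14. U3 loci lie among the first 5 ranks and SNHG14-hosted genes between 93.1 and 1961 reads.

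The reads stopped at the ends of the genes. In the 11 to 40 bases outside each gene, a median of 0% of the depth inside was listed, 133 of the 171 genes had no listed position there, and 169 lay under 5%. The exceptions were SNORD49B in SNHG29 with 19.4% and SNORD36C in RPL7A with 7.34%. Within the genes depth was even, with relative values of 0.858 ± 0.0194 over the first 10% and 0.813 ± 0.0192 over the last 10% of the length, and 1.05 or 1.06 in the middle (mock, SD, n = 16). A position under 30 reads is not listed, so these flanks may hold reads below that number.

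Depth was then compared between genotypes over 436 genes below the ceiling, 165 of them snoRNAs of this set, with edgeR's quasi-likelihood test on library sizes scaled by TMM, and adjusted over all 436 genes. Values by library are depths scaled in this way, and genes counted as called had an adjusted p under 0.05. Counts at an unadjusted p under 0.05 are given without the share over all genes at that threshold. They therefore lack a background and do not show an excess in the snoRNAs. A depth averages all cells of a sample, and fewer copies per cell cannot be told apart from fewer cells that express a gene. Comparisons against NAT10-WT share its libraries, and Wildtype libraries enter 2 of them.

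Loss of NAT10 left no snoRNA past the test. In NAT10(-) against NAT10-WT, 0 of the 165 snoRNAs were called, as were 0.0% of all 436 genes. DESeq2 called 0 as well, beside 0.0% of all genes, and 1 snoRNA had an unadjusted p under 0.05. That one was SNORD53, with 429 and 368 reads in NAT10(-) and 572 and 605 in NAT10-WT (log2 fold change -0.56 ± 0.25 SE, adjusted p 0.997). SNORD58B had 1030 and 871 reads in NAT10(-) and 1240 and 1310 in NAT10-WT, and SNORD50B 181 and 163 in NAT10(-) and 227 and 252 in NAT10-WT. Their log2 changes of -0.42 and -0.48 carried SEs of 0.26 and 0.30, and neither was called. For SNORD13, the U13 partner of the 18S rRNA site, the libraries overlapped, with 3960 and 4920 reads in NAT10(-) and 3620 and 6280 in NAT10-WT (log2 change -0.16 ± 0.42 SE). SNORD3A had 13000 and 12200 reads in NAT10(-) against 15700 and 22300 in NAT10-WT (log2 change -0.60 ± 0.49 SE, adjusted p 0.997). Before scaling, its depth varied little between mock libraries, as at the U3 loci that reached the ceiling. Whether the ceiling shaped the scaled values of SNORD3A was not tested. The median log2 change was -0.14 over the snoRNAs and -0.04 over all genes tested.

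The parental libraries stood apart from those of the degron cells at the SNHG14 locus, though no snoRNA there was called in the plain fit. For the 25 SNHG14-hosted snoRNAs, that is 22 SNORD116 genes with SNORD64, SNORD107 and SNORD109A, the summed scaled depth was 20171 and 23594 reads in Wildtype, against 9991 to 17754 in the other 14 mock libraries. Replicate 2 had the higher sum in all 8 genotypes. Within replicate 1 Wildtype had 20171 and the others 9991 to 13199, and within replicate 2 Wildtype had 23594 and the others 12555 to 17754. In Wildtype against NAT10-WT all 25 had log2 changes above 0, with a median of 0.82 (0.33 to 1.03), against -0.05 over all genes. In FKBP against Wildtype, a comparison that shares the Wildtype libraries, all 25 lay below 0, with a median of -0.77 (-1.12 to -0.56), against -0.07 over all genes. The directions were the same in all 25 with library size as the scale and with DESeq2, and in all 24 that could be tested in the NaCNBH3 libraries. The 25 share a host, and these alternatives use the same RNA, so the counts are not independent observations. K290A, the libraries labelled E389L, H537A, G641E and NAT10(-) had medians of 0.19, 0.18, 0.29, -0.01 and -0.16 against NAT10-WT.

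SNORD116-19 shows the size of this difference. It had 1640 and 1670 reads per position in Wildtype, against 853 and 896 in NAT10-WT (log2 change 0.92 ± 0.29 SE, adjusted p 0.131), and 671 and 892 in FKBP, against the same Wildtype libraries (log2 change -1.08 ± 0.29 SE, adjusted p 0.0797). For SNORD116-15 the depths were 1130 and 1120 in Wildtype, against 610 and 662 in NAT10-WT, and 579 and 699 in FKBP. SNORD107, a snoRNA without a known rRNA target that lies upstream of the array, had 292 and 423 reads in Wildtype, against 186 and 171 in NAT10-WT (log2 change 1.00 ± 0.26 SE, adjusted p 0.0866), and 172 and 195 in FKBP (log2 change against Wildtype -0.96 ± 0.25 SE, adjusted p 0.0797). In the plain fit neither these genes nor another snoRNA was called. Wildtype against NAT10-WT gave 0 snoRNAs, with 0.0% of all genes called, and 17 by DESeq2 beside 9.63% of all genes. FKBP against Wildtype gave 0, with 1.38% of all genes called, and 22 by DESeq2 beside 11.7% of all genes. An unadjusted p under 0.05 was reached by 37 snoRNAs in the first comparison and 25 in the second, without a share over all genes at that threshold.

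With the replicate number of the labels as a block, calls appeared in both comparisons. Wildtype against NAT10-WT then had 18 snoRNAs called higher and 5 lower, beside 10.3% of all genes, and 16 of the 18 were SNHG14-hosted. The other 2 were SNORD94, a guide for U6 snRNA, and SNORD11B in NOP58. FKBP against Wildtype had 3 higher and 21 lower, beside 11.2% of all genes, and 19 of the 21 were SNHG14-hosted. SNORD74, a GAS5-hosted methylation guide, was called in both. It had 1180 and 883 reads in Wildtype, against 2370 and 2700 in NAT10-WT (block adjusted p 0.0173), and 2160 and 1840 in FKBP (block adjusted p against Wildtype 0.0412). SNORD94 had 1140 and 1200 reads in Wildtype, against 474 and 655 in NAT10-WT (block log2 change 1.07 ± 0.24 SE, block adjusted p 0.0181).

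GAS5-hosted snoRNAs as a group lay the other way. The sum over the 9 tested was 20360 and 19323 reads in Wildtype, below all 14 other mock libraries (24010 to 35900). All 9 had log2 changes below 0 in Wildtype against NAT10-WT (median -0.34) and above 0 in FKBP against Wildtype (median 0.34), which share the Wildtype libraries. Scaled by library size instead, 2 of the 9 lay above 0 and 7 below in Wildtype against NAT10-WT. The 3 snoRNAs in GNL3, a nucleolar GTPase gene, had a median of -1.02 in Wildtype against NAT10-WT, with none called. SNHG1-hosted snoRNAs were below 0 in 8 of 8 there (median -0.42, none called). Of the 12 snoRNAs grouped under rRNA processing, SNORD13 counted among them, 8 could be tested. None was called in any comparison of the plain fit.

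**Figure D2:**
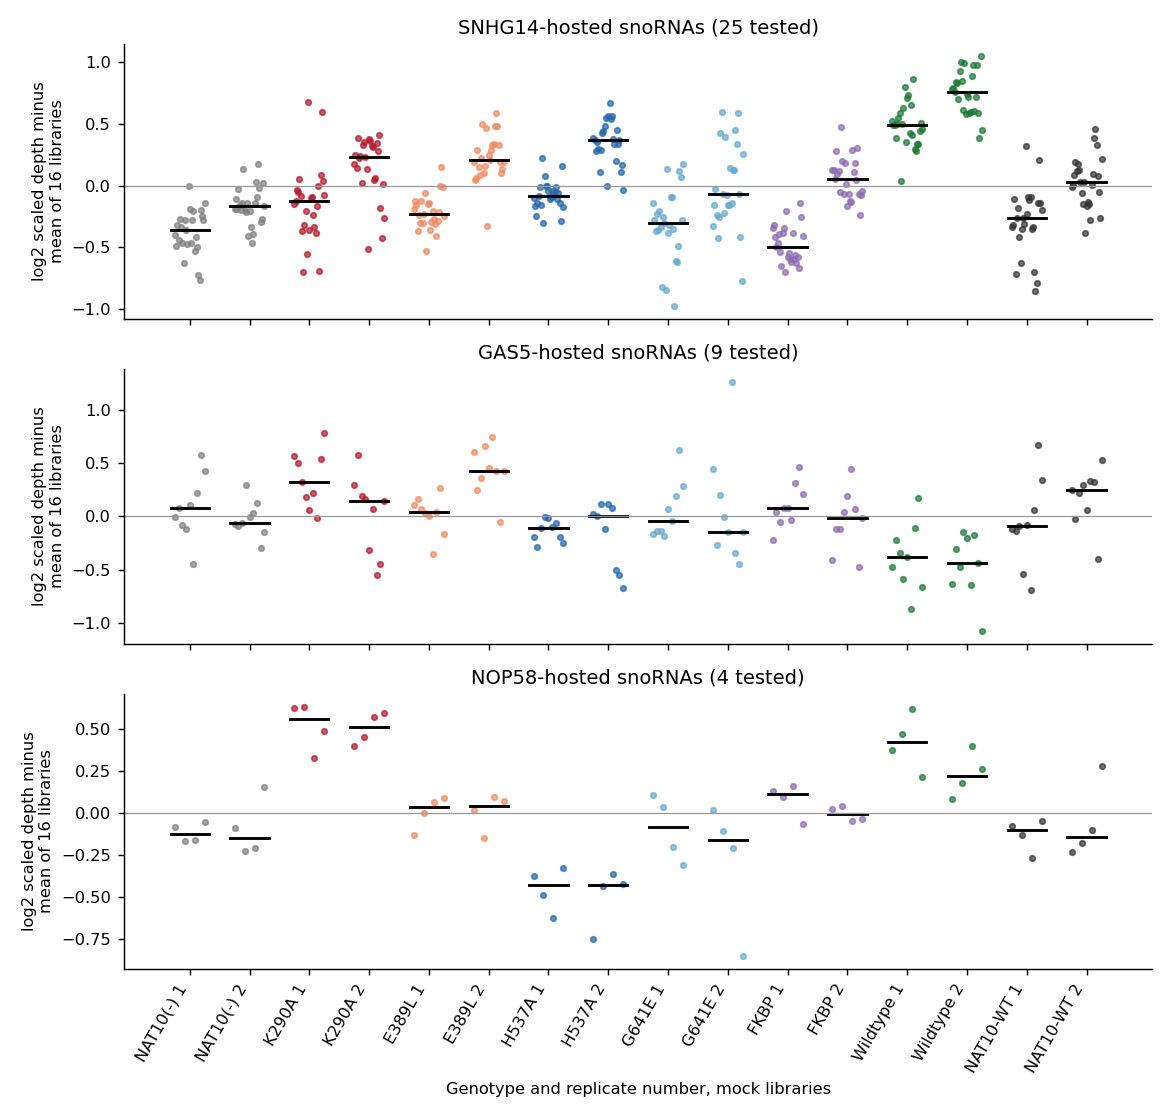
Scaled depth (log2, minus the mean over 16 libraries) of the snoRNAs hosted by SNHG14, GAS5 and NOP58 in each mock library. A point is a gene and a bar the median over genes. Wildtype libraries have the highest SNHG14 medians (0.49 and 0.76) and the lowest GAS5 medians (-0.37 and -0.44), and NOP58 medians are highest in K290A (0.55 and 0.51) and lowest in H537A (-0.43 in both).

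Among single mutants, 1 snoRNA changed. SNORD86, an intronic snoRNA of NOP56, fell in K290A, with 133 and 135 reads per position against 338 and 420 in NAT10-WT (log2 fold change -1.50 ± 0.26 SE, edgeR adjusted p 0.00689). No other mock library came below 204. It was the only one of 165 snoRNAs called in K290A against NAT10-WT, where 3.9% of all genes were. The other NOP56 snoRNAs lay above 0, and the median over the 4 was 0.39. With the replicate block 5 snoRNAs were higher and 4 lower, beside 11% of all genes. Those lower were SNORD86, SNORD50B, SNORD6 and SNORD3A. SNORD3A had 6900 and 8070 reads in K290A, against 15700 and 22300 in NAT10-WT (block log2 change -1.32 ± 0.37 SE, block adjusted p 0.0387). The reservations on shared U3 reads and on the ceiling apply to it. Those higher were SNORD47, SNORD94 and 3 snoRNAs of NOP58, SNORD11B, SNORD70 and SNORD70B. The calls of the plain fit changed when K290A replicate 1, the library with the most listed positions, or NAT10-WT replicate 2 was left out. DESeq2 called 9, beside 9.86% of all genes.

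The libraries labelled E389L, the other helicase mutant, had 0 snoRNAs called against NAT10-WT beside 0.0% of all genes, 0 by DESeq2 beside 0.0%, and 0 at an unadjusted p under 0.05. The smallest p belonged to SNORD57 (921 and 1530 reads in the libraries labelled E389L, 856 and 918 in NAT10-WT, log2 change 0.46 ± 0.26 SE), SNORD45B (2290 and 2550 in E389L, 1620 and 2190 in NAT10-WT) and SNORD50B (172 in both E389L libraries, 227 and 252 in NAT10-WT).

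The GNAT mutants had few calls as well. In H537A against NAT10-WT 0 snoRNAs were called beside 0.0% of all genes, 0 by DESeq2 beside 0.0%, and 23 had an unadjusted p under 0.05. SNORD58C had 365 and 304 reads in H537A, against 611 and 682 in NAT10-WT (log2 change -0.95 ± 0.27 SE, adjusted p 0.361). SNORD93 had 481 and 306 in H537A, against 687 and 845 in NAT10-WT, and SNORD92 789 and 456, against 1070 and 1310. None of these 3 passed the adjustment. The block fit called 1 snoRNA, SNORD53B, beside 0.688% of all genes (228 and 163 reads in H537A, 584 and 343 in NAT10-WT, block log2 change -1.22 ± 0.19 SE, block adjusted p 0.0118). In G641E against NAT10-WT 0 snoRNAs were called beside 0.229% of all genes, with 11 at an unadjusted p under 0.05, and 3 by DESeq2 beside 0.917% of all genes. The block fit called 2, both in TAF1D introns, beside 1.15% of all genes. SNORD6 had 849 and 649 reads in G641E, against 1370 and 1660 in NAT10-WT (block adjusted p 0.0476), and SNORD5 632 and 391, against 1070 and 1050 (block adjusted p 0.0437). The 3 U14 copies of HSPA8 had a median of -0.60 in G641E, with SNORD14D at 2500 and 2860 reads against 3920 and 4280 in NAT10-WT (adjusted p 0.399).

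Set against the GNAT mutants, the libraries labelled as helicase mutants had 7 of 165 snoRNAs called, about the share called over all genes. In K290A and the libraries labelled E389L against H537A and G641E, these 7 were higher and none was lower, beside 3.44% of all genes called in either direction, and the median log2 difference was 0.18 over the snoRNAs and 0.00 over all genes. The adjusted p of the 7 ran from 0.0425 to 0.0462. The largest was SNORD20, in an intron of the nucleolin gene NCL, with 1220, 890, 911 and 764 reads in K290A and E389L and 527, 296, 672 and 587 in H537A and G641E (log2 difference 0.88 ± 0.21 SE, adjusted p 0.0425). SNORD11 in NOP58 had 1020, 1100, 773 and 763 reads in the helicase mutants and 579, 544, 588 and 403 in the GNAT mutants (0.77 ± 0.16 SE). SNORD47 in GAS5 had 4190, 4410, 3320 and 3510 in the helicase mutants and 2430, 2970, 2690 and 2460 in the GNAT mutants (0.54 ± 0.14 SE). The remaining 4 were SNORD91A in TSR1 (0.61), SNORD105 in PPAN (0.70), SNORD11B in NOP58 (0.61) and SNORD93 (0.81). At SNORD93, G641E replicate 1 with 755 reads exceeded both E389L libraries (737 and 727).

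Without the libraries labelled E389L, that is with K290A alone against H537A and G641E, the fit called 8 snoRNAs higher and 2 lower, beside 8.72% of all genes. Of the 7, 6 were called in this fit too, with log2 differences of 0.70 for SNORD91A to 1.08 for SNORD93, and SNORD105 was not (0.64 ± 0.21 SE, adjusted p 0.082). The other 2 called higher were SNORD70 and SNORD70B in NOP58. Those lower were SNORD86 and, with the reservations on shared U3 reads and on the ceiling, SNORD3A.

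NOP58, a core protein of the box C/D particle, hosts 4 of the snoRNAs, all of them above 0 in helicase against GNAT mutants (median 0.55, 2 called, and 4 called with the replicate block). Their summed depth was 2734 and 2896 reads in K290A and 2046 and 2045 in the libraries labelled E389L, against 1436 and 1473 in H537A and 1763 and 1535 in G641E, and 1791 and 2024 in NAT10-WT. RPL7A-hosted (median 0.66 over 4) and WDR43-hosted snoRNAs (median 0.65 over 3) were above 0 in each case, with none called in the plain fit and 3 and 2 of them called with the block. The 7 calls were sensitive to single libraries. None remained when K290A replicate 1, E389L replicate 1, E389L replicate 2, H537A replicate 2 or G641E replicate 2 was left out. The number called also changed without H537A replicate 1, G641E replicate 1 or K290A replicate 2. The NaCNBH3 libraries of the same RNA gave 0 calls for this difference, beside 0.932% of all genes. With the replicate block 27 snoRNAs were higher and 1 lower, beside 16.7% of all genes, and DESeq2 called 24 higher and 1 lower, beside 14.9%. The 1 lower with the block was SNORD3A, with the same reservations. Of 165 snoRNAs tested, both counts are near the share over all genes.

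**Figure D3:**
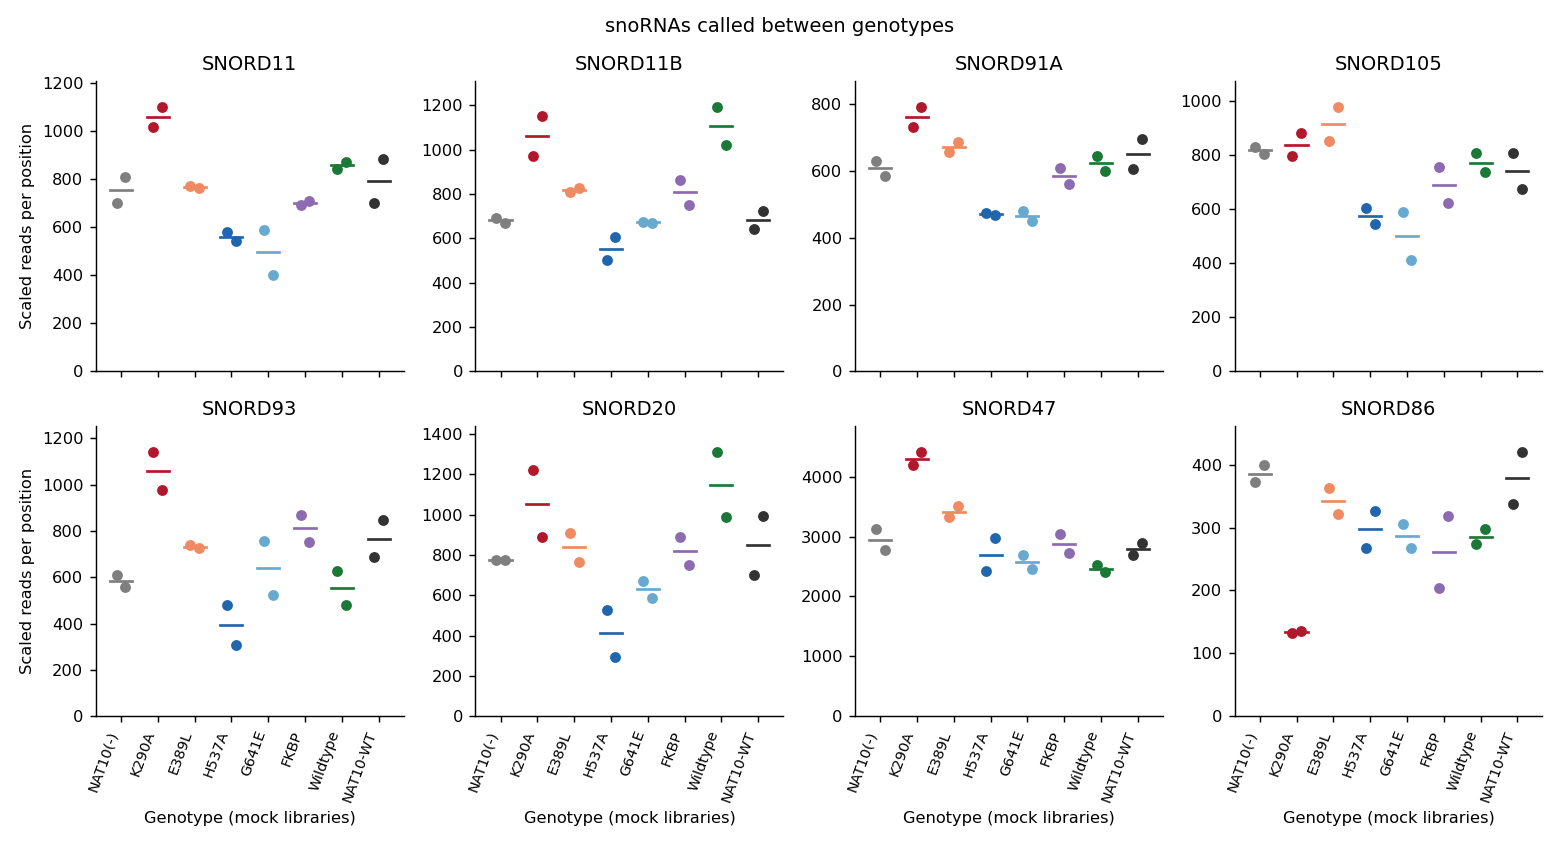
Scaled depth (reads per position) of the 8 snoRNAs called between genotypes. Points are single mock libraries and bars the mean of 2. SNORD86 has its lowest values in K290A (133 and 135), and the other 7 are higher in K290A and the libraries labelled E389L than in H537A and G641E on average, with overlap in SNORD93.

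These depths are relative to the other genes of a library. With total base calls as the library size, the median log2 change over all 436 genes moved to 0.276 in NAT10(-), 0.914 in K290A, 0.425 in the libraries labelled E389L, -0.156 in H537A, 0.0211 in G641E and 0.22 in Wildtype, each against NAT10-WT, to 0.135 in FKBP against Wildtype, and to 0.734 in helicase against GNAT mutants. On that scale 35 snoRNAs were higher in helicase than in GNAT mutants, beside 10.8% of all genes, and none was called in K290A.

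At 45 positions in 20 of the genes, a base other than the reference took over 1% of reads and at least 5 reads in every mock library. This is 0.317% of the 14209 covered snoRNA positions, against 0.716% of positions in other RNAs. Changes are written as the reference base, its position counted from 1 at the 5′ end of the RefSeq gene, and the base read. U3 held 21 of the 45 positions, SNORD116 genes 8, and 13 other genes 16. For 6 of the SNORD116 positions and 2 of the U3 positions the read base matched another copy in the reference genome, and for none of the 16 others. RefSeq sequences of genes with such positions follow (GRCh38.p14, 5′ to 3′, the positions in capitals), to show where in each snoRNA the reads departed from the reference.
SNORD3A (U3, chr17:19188016-19188232, plus strand): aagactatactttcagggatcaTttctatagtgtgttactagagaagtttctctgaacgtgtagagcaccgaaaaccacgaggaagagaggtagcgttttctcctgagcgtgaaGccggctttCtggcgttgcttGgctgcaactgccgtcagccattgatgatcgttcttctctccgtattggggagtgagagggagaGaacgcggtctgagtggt
SNORD3C (U3, chr17:19190029-19190245, minus strand): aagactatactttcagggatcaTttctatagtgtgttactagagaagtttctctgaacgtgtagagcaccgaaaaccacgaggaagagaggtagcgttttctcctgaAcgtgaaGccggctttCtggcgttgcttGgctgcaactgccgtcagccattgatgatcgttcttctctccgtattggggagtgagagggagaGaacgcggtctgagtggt
SNORD14D (U14, chr11:123058909-123058995, minus strand): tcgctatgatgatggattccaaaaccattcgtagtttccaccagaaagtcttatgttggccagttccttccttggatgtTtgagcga
SNORD13J (chr3:47250517-47250609, minus strand): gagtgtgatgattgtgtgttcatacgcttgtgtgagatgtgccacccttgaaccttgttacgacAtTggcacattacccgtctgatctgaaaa
SNORD94 (chr2:86135870-86136006, plus strand): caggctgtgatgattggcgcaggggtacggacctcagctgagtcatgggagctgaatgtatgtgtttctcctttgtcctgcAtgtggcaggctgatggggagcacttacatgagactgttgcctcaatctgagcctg
SNORD77 (chr1:173866301-173866370, minus strand): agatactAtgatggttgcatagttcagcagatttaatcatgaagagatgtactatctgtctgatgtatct
SNORD25 (chr11:62855565-62855631, minus strand): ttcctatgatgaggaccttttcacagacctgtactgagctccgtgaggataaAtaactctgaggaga
SNORD48 (chr6:31835263-31835326, plus strand): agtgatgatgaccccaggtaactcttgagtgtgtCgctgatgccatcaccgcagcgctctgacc
SNORD35A (chr19:49491175-49491260, plus strand): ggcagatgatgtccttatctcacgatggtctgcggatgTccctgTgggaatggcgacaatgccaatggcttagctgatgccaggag
SNORD97 (chr11:10801467-10801608, minus strand): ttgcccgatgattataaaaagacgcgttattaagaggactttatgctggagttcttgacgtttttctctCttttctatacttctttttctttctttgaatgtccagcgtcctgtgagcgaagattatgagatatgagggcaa
SNORD116-6 (chr15:25065025-25065122, plus strand): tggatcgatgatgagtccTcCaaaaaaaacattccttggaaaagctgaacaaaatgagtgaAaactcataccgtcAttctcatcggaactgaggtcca

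At a first group of positions nearly every read differed from the reference. C124T and G136C had mean shares of 99.8 to 100.0% in all 4 U3 loci, so the U3 read in these cells carried T and C there whichever copy it was aligned to. SNORD3C A108G (99.9 ± 0.04%) and SNORD3B-1 C78A (99.0 ± 0.21%) each turned the base of 1 locus into that of another (SD, n = 16). SNORD13J T67G and A65C were at 100.0% and SNORD54 T44C at 99.9%. SNORD14D T80C stood at 99.9 ± 0.05%. The RefSeq sequence of SNORD14D holds no CTGA, and with the base read at T80C a CTGA starts at base 80 of 87, where a D box lies in the other genes (this position was examined further after its value was seen).

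A second group had intermediate shares in every genotype, and its positions were chosen after their values were seen. SNORD25 A53G had a mean share of 69.0 ± 2.7% over 16 mock libraries (61.3 to 72.4%), and SNORD77 A8G 69.1 ± 5.69% (60 to 77.7%). SNORD13 G82C had 66.4 ± 2.21% and SNORD17 C28A 16.7 ± 2.20%. In SNORD35A, T45C and T39A had nearly the same share, 33.2 ± 1.49% and 33.1 ± 1.48%. U3 T23G differed between loci, with 88.4 ± 13.7% at SNORD3C (91.8 ± 3.43% without K290A mock replicate 2, which had 38.6%, and 24.0% in its NaCNBH3 portion), 36.9 ± 2.48% at SNORD3A and 35.1 ± 3.91% at SNORD3B-1, and G115A had 60.1 ± 11.8% at SNORD3C and 45.8 ± 11.4% at SNORD3D. Reads of the U3 copies are divided between loci by alignment, and these shares describe loci and not single genes. Mean shares in the NaCNBH3 libraries lay within 1 SD of the mock means at all the positions of this paragraph.

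SNORD94, which guides methylation of U6 snRNA, had a position that set the parental cells apart. A82G took between 91.1 and 99.3% of reads in the 14 mock libraries of degron cells, against 68.6 and 73.0% in Wildtype. FKBP cells had 91.1 and 92.5%, NAT10(-) 98.2 and 98.0% and NAT10-WT 98.2 and 97.0%. In the NaCNBH3 libraries FKBP had 89.3 and 91.7% and Wildtype 68.6 and 73.2%. On the log2 scale of mismatch over reference reads (pseudocount 0.5), FKBP exceeded Wildtype by 2.20 ± 0.38 SE (limma, adjusted p 0.0085 over 2317 positions of all RNAs). Wildtype cells had more reads of the reference base and a like number of the other. Scaled A reads averaged 85.7 in FKBP against 369 in Wildtype, and G reads 947 in FKBP against 897 in Wildtype.

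SNORD97, which guides methylation of elongator tRNA-Met, was the second position called. C70T had 3.39 and 4.19% in FKBP and 1.6 and 1.63% in Wildtype (log2 1.23 ± 0.21 SE, limma adjusted p 0.0079), and between 2.11 and 4.43% in the other 12 mock libraries. Scaled C reads averaged 526 in FKBP against 1010 in Wildtype. These 2 were the only ones of 45 snoRNA positions called in FKBP against Wildtype, beside 8.2% of all positions tested, and neither was called without FKBP replicate 2 or without Wildtype replicate 1. SNORD48, often used as a reference for small RNAs, pointed the other way, with C35T at 41.5 and 36.3% in FKBP and 49.3 and 49.0% in Wildtype, and 29.9 to 40% elsewhere. Wildtype did not overlap any other genotype there, although the test gave an adjusted p of 0.0932 (log2 -0.60 ± 0.19 SE).

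Other comparisons were run at the same positions. In NAT10(-) against NAT10-WT 0 of 45 were called by limma, beside 0.0% of all positions, with 3 at an unadjusted p under 0.05. In helicase against GNAT mutants 0 of 45 were called, also beside 0.0%, again with 3 at an unadjusted p under 0.05. The share of all positions at that unadjusted threshold is not given for either comparison. The 3 in helicase against GNAT mutants were G115A at SNORD3C (0.96) and SNORD3D (1.00) and C28A in SNORD17 (-0.44, adjusted p 0.39), in log2 units. Without the libraries labelled E389L 1 position was called by limma, SNORD94 A82G (log2 -1.73 ± 0.26 SE, adjusted p 0.0382). There the reference A had 122 of 1631 and 136 of 1688 reads in K290A. It had 82 of 951 and 32 of 598 in G641E, and 5 of 607 and 3 of 420 in H537A. The shares of K290A and G641E overlapped, so H537A alone stood apart, on few A reads. The share of all positions called in that fit is not given here, so this call lacks a background. Single mutants were not compared with NAT10-WT at these positions.

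**Figure D4:**
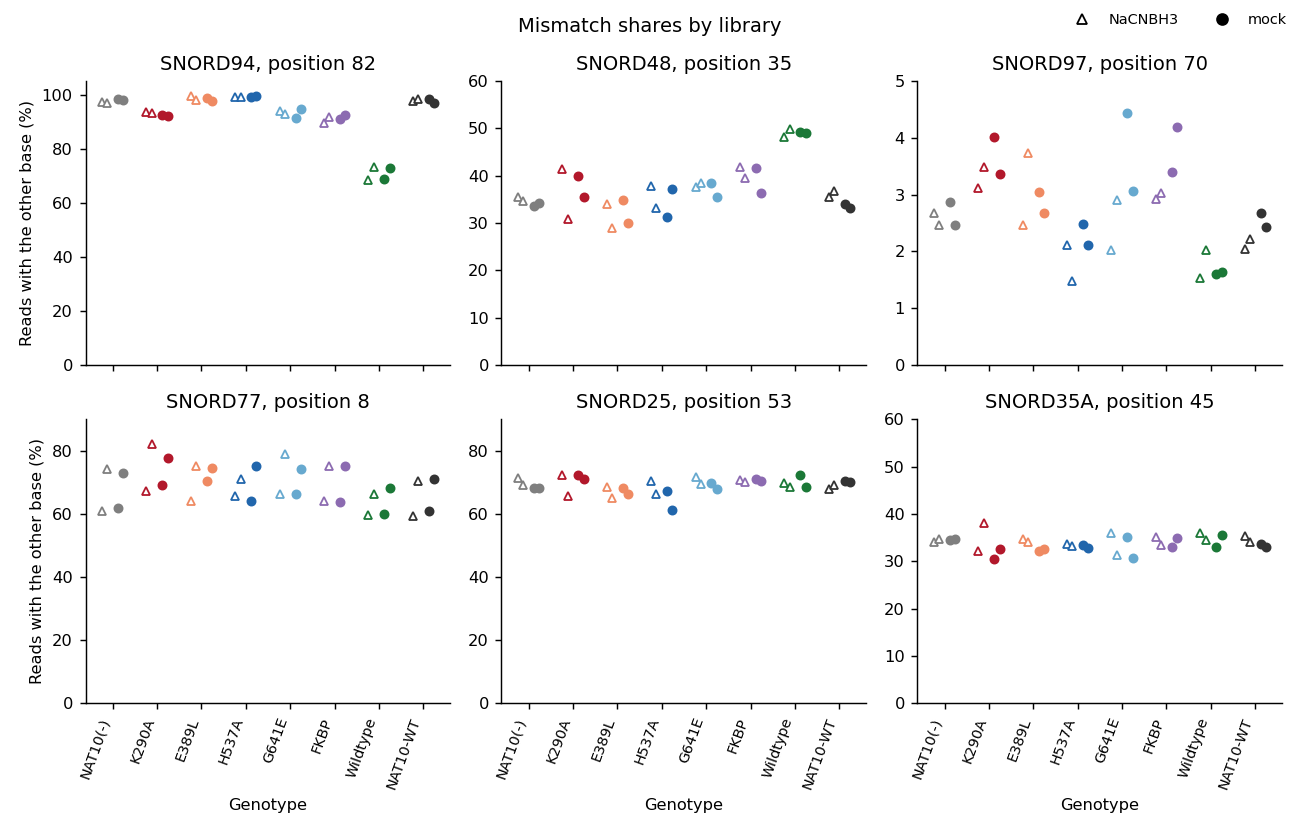
Share of reads with the other base (%) at 6 snoRNA positions, by genotype. Open triangles are NaCNBH3 libraries and filled circles mock libraries. At SNORD94 position 82 the mock libraries of degron cells lie at 91.1% or more and those of Wildtype at 68.6 and 73.0%, at SNORD48 position 35 Wildtype lies highest, and at SNORD97 position 70 lowest in the mock libraries.

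The last comparison asked whether cytidines of the snoRNAs were read as T more often after NaCNBH3, as ac4C would be. A cytidine was tested within a genotype when T was its commonest mismatch with over 1% and 5 reads in either portion, and called when Fisher's exact test passed an adjusted p of 0.05 in each of the 2 replicates, with the same sign. No snoRNA cytidine of this set was called in any genotype. The 6 named genes were left out before the test, with earlier results of these data known. The paper reports ac4C in a few snoRNAs, so the result holds for this set and not for box C/D snoRNAs at large. The number tested was 16 in each of K290A, FKBP and NAT10-WT, 15 in NAT10(-), 14 in Wildtype and 12 in each of H537A, G641E and the libraries labelled E389L. In every genotype 4 of these were position 124 of the U3 loci, where T already took 99.6% or more of reads in mock and could hardly rise. Over all RNAs the share of tested cytidines called higher after NaCNBH3 was 3.68% in NAT10(-), 3.88% in K290A, 3.7% in the libraries labelled E389L, 4.42% in H537A, 3.7% in G641E, 5.09% in FKBP, 9.32% in Wildtype and 11.3% in NAT10-WT. Few snoRNA cytidines entered the test at this threshold, and they came from 16 genes, of which 4 were U3 loci and 5 SNORD116 genes.

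Of the 3 reference cytidines with the largest gains of T in Wildtype and NAT10-WT, 2 were tested in all 8 genotypes and not called. SNORD3B-1 position 78 was not tested, since its commonest mismatch was A. In mock 34193 of 34522 reads had A there, so its gain of T cannot be taken as C read as T. T had there 1.77% after NaCNBH3 and 0.0887% in mock, higher in 16 of 16 pairs, with a gain of 1.69 percentage points in Wildtype and NAT10-WT and 1.69 in the other genotypes. Reads at this position are those that U3 copies share, and a share at 1 locus can come from a small part of them. At SNORD116-19 position 69, a CCG cytidine, T had 8.27% after NaCNBH3 and 7.34% in mock, higher in 11 of 16 pairs, with gains of 1.56 points in Wildtype and NAT10-WT and 0.719 in the others (SD over all pairs 1.52). At SNORD48 position 35 the means were 37.8% after NaCNBH3 and 37.1% in mock, higher in 10 of 16 pairs (gain 0.679 ± 2.81 points, SD, n = 16).

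Taken over all 2831 snoRNA cytidines covered in every library, the mean C>T share was 0.279 ± 0.016% after NaCNBH3 and 0.224 ± 0.005% in mock (SD, n = 16). It was higher after NaCNBH3 in 16 of 16 pairs (gain 0.0555 percentage points, exact two-sided sign-flip permutation test, p = 3.05e-05, the smallest this test can give). The gain did not depend detectably on active NAT10. It was 0.0591 ± 0.0173 in Wildtype and NAT10-WT (n = 4 pairs) and 0.0543 ± 0.0146 in the 6 other genotypes (n = 12 pairs), a difference of 0.00486 (exact permutation test, two-sided, p = 0.593). Permutation within replicate numbers gave p = 0.327, and without the libraries labelled E389L the difference was 0.00488 (exact permutation p = 0.615). The same held for the 66 cytidines in the middle of CCG, the triplet of known ac4C sites, with gains of 0.0768 ± 0.0161 in Wildtype and NAT10-WT and 0.0617 ± 0.0319 in the others (exact permutation p = 0.376). These comparisons of gains took the pairs of a genotype as separate units, whereas NAT10 status is set by genotype. With so few genotypes they cannot exclude a dependence on NAT10.

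Other bases changed with NaCNBH3 too. Over positions under 1% mismatch in mock, A read as T had 0.0460 ± 0.0088% after NaCNBH3 and 0.00444 ± 0.00052% in mock, a 10.4-fold difference, C read as T 0.101 ± 0.017% after NaCNBH3 and 0.0466 ± 0.0052% in mock (2.17-fold), and A read as G 0.0251 ± 0.0020% after NaCNBH3 and 0.0160 ± 0.0011% in mock (1.57-fold). Each of these 3 was higher in 16 of 16 pairs (exact sign-flip permutation test, adjusted p over 12 types 9.16e-05). Smaller gains passed the same test for G read as C (1.28-fold, 16 of 16 pairs, adjusted p 9.16e-05), T read as A (1.24-fold, 12 pairs), A read as C (1.12-fold, 12 pairs), G read as T (1.1-fold, 11 pairs) and G read as A (1.07-fold, 13 pairs). The A>T gain in the snoRNAs minus that in other RNAs was -0.00556 percentage points, and below 0 in 16 of 16 pairs (exact sign-flip permutation test, adjusted p 0.000366). It was spread over the set. All 168 genes with usable positions had a mean gain above 0 for A>T (median 0.0410, 0.00953 to 0.0660) and for C>T (median 0.0539, 0.00432 to 0.120), and 107 and 61 of them were higher in 16 of 16 pairs.

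**Figure D5:**
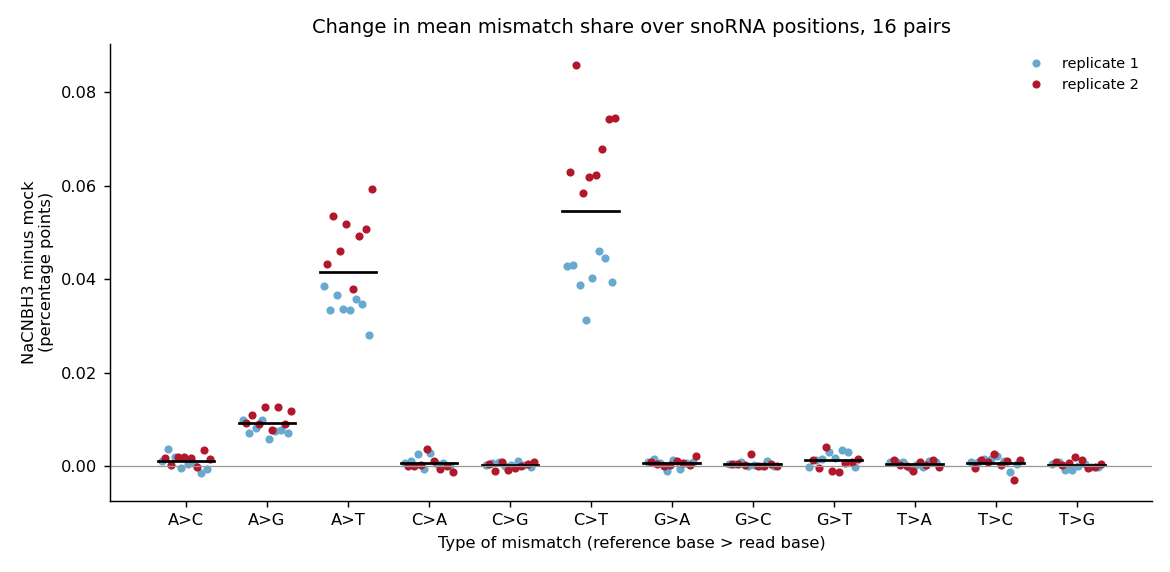
NaCNBH3 minus mock mean mismatch share (percentage points) over snoRNA positions for the 12 types of mismatch. A point is 1 of 16 pairs, coloured by replicate number, and bars are means. C>T (0.0546), A>T (0.0416) and A>G (0.00916) stand above the rest, with larger C>T gains in replicate 2.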

How the data were processed

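Total RNA of Hep3B cells was measured by ac4C sequencing in 32 libraries. The authors deposited counts of A, C, G and T per genomic position with 30 or more reads, raw and per library. Per the submitters' processing notes and the study's methods, the reads were trimmed with cutadapt 4.2, deduplicated by 10-nt molecular identifiers with UMI-tools (1.1.5 in the processing notes, a later release in the methods), aligned to GRCh38 with STAR 2.7.9a and piled up with SAMtools 1.6. Counts level off between 20029 and 20049 reads, and reads of near-identical copies are divided between loci by the aligner.

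Members came from the RefSeq SNORD genes (GRCh38.p14), a choice of annotation made after the coverage had been looked at, with 151 of the 171 also in GENCODE v44. The members and lists were chosen with earlier results of these data known. Named genes were the processing snoRNAs and families listed at the outset, the 5 highest and 5 lowest genes, called genes or else the 3 with the smallest p per comparison, the 15 highest and all called mismatch positions, and the 3 largest C>T gains. A mismatch position is not reported here.

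Depth per gene was the mean count over positions listed in all 16 mock libraries, rounded, and tested with edgeR 4.0.16 (quasi-likelihood, TMM, 1 coefficient per genotype) over 436 genes, with DESeq2 1.42.0 as an alternative. Genes with 19000 reads or more at a position were not tested. Mismatch shares were tested with limma 3.58.1 on log2 of (other base + 0.5) over (reference + 0.5) at 2317 positions, C>T per replicate with Fisher's exact test (Benjamini-Hochberg), and pooled shares with exact permutation tests (scipy 1.17.1). The tests were tried on simulated data. The p-values of the depth and mismatch fits rest on the spread between 2 replicates per group. In the transduced genotypes these came from separate transductions, whereas Wildtype and FKBP cells had none. Fisher's exact test rests on read counts within 1 replicate and does not measure the spread between replicates. The permutation tests rest on the spread between pairs of libraries or between genotypes. Depth sets the precision, with at least 30 and at most 20049 reads a position. The labels give the replicate number as the batch, so the numbers pair the samples. Deviations of same-numbered mock libraries correlated over 436 genes in 27 of 28 genotype pairs at r over 0.1 (lowest 0.0784, median 0.385, highest 0.807). The main fit has no block, and the fit with the replicate block is given where it changes a call. Other alternatives were library size, filters on depth, the NaCNBH3 libraries, the C>T threshold, merging of copies and leaving out each library. The fits without the libraries labelled E389L were added after seeing the data.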

Additional observations from a re-analysis of the deposited data

Results flagged for a closer look

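Signals in types of mismatch other than C>T rose with NaCNBH3 over the snoRNAs. The A>T share gained 0.0416 percentage points and the A>G share 0.00916, each higher after NaCNBH3 than in mock in 16 of 16 pairs. Smaller gains were 0.00125 for G>T, 0.00114 for A>C, 0.000672 for G>A, 0.000528 for G>C and 0.000466 percentage points for T>A, with G>C higher in 16 of 16 pairs and the others in 11 to 13. At positions with 1000 or more reads in every library, 599 of 614 adenosines had a mean A>T gain above 0 (median 0.0392) and 560 of 565 cytidines a mean C>T gain above 0 (median 0.0496). By the base before it, the A>T gain was 0.0499 points after T, 0.0473 after A, 0.0446 after C and 0.0326 after G.

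The gains differed between the replicate numbers, which the labels give as batches. The C>T gain was 0.0684 ± 0.0091 in replicate 2 and 0.0408 ± 0.0046 in replicate 1 (SD, n = 8 genotypes), a difference of 0.0277 points and higher in replicate 2 in 8 of 8 genotypes (exact two-sided sign-flip permutation test, p = 0.0078, the smallest possible). For A>T the difference was 0.0147 points (0.0489 in replicate 2 and 0.0342 in replicate 1, 8 of 8 genotypes, exact permutation p = 0.0078), and for A>G 0.00247 points (0.0104 in replicate 2 and 0.00792 in replicate 1, 7 of 8 genotypes, exact permutation p = 0.0156). Adjusted over these 3 comparisons by Benjamini-Hochberg the p-values are at most 0.0156. Groups of 2 libraries were too small to look for single outlying samples.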

How the results depend on the processing

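Of 185 recomputed values, 144 kept their direction and side of the threshold, or a count within 1.5 times, 40 counts moved by more and 1 difference turned its sign. The counts of snoRNAs called for depth changed most. With DESeq2 they were 17 in Wildtype against NAT10-WT, 22 in FKBP against Wildtype, 9 in K290A, 3 in G641E and 25 in helicase against GNAT mutants, of 165 tested, beside 9.63, 11.7, 9.86, 0.917 and 14.9% of all genes. With the replicate block they were 23, 24, 9, 2 and 28 in the same comparisons and 1 in H537A, and the block changed no call in NAT10(-), E389L or the 3 mismatch comparisons. With total base calls as library size they were 0 in K290A and 35 in helicase against GNAT mutants, and the NaCNBH3 libraries gave 0 in the last. Leaving out 1 library at a time gave 0 to 4 in K290A, 0 to 13 in helicase against GNAT mutants, 0 to 2 mismatch positions in FKBP against Wildtype and 0 to 1 in helicase against GNAT mutants, with the cause not tested. At a C>T threshold of 0.1% in place of 1%, called cytidines numbered 4 of 150 tested in NAT10(-), 5 of 161 in K290A, 0 of 96 in the libraries labelled E389L, 3 of 49 in H537A, 1 of 90 in G641E, 3 of 168 in FKBP, 7 of 93 in Wildtype and 2 of 99 in NAT10-WT, beside 3.73% (K290A) to 16.4% (Wildtype) of all cytidines tested. With 1 replicate alone at the 1% threshold, cytidines were called in K290A, H537A, NAT10-WT and Wildtype and in none of the other genotypes. The difference in the pooled C>T gain between Wildtype with NAT10-WT and the other genotypes turned to -0.0591 (exact permutation p = 0.401) when T was summed over all reads, a sum led by the deepest loci such as U3. The fits without the libraries labelled E389L were an alternative chosen after seeing the data. Helicase against GNAT mutants then had 10 of 165 snoRNAs called, beside 8.72% of all genes. The comparison also had 1 mismatch position called, for which the share over all positions is not given here. With members limited to GENCODE v44 genes, an alternative chosen after seeing the data, 6 in place of 7 were called in helicase against GNAT mutants. The ceiling of 20029 to 20049 reads leaves 6 genes untested for depth, and positions under 30 reads are not listed.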

Other observations

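SNORD77, a GAS5-hosted snoRNA, had a mismatch share that moved with the replicate number. A8G averaged 73.6% in replicate 2 and 64.5% in replicate 1 of the mock libraries, higher in replicate 2 in 8 of 8 genotypes by 9.06 points on average, and in the NaCNBH3 libraries the difference was 10.8 points, again in 8 of 8 genotypes. It was chosen after the values of all 45 positions had been seen, and its cause was not tested.

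Position 78 of U3 showed how shared reads affect a share at 1 locus. At SNORD3B-2, the identical copy of SNORD3B-1, T made up 18.1% of 9367 NaCNBH3 reads and 1.15% of 6880 mock reads, summed over 16 libraries each. Over the 4 U3 loci with reads at this position together it was 0.399% of 586444 NaCNBH3 reads and 0.0194% of 598708 mock reads.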
